A study of Sus scrofa with 20 samples.

Results

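This account covers the CD antigens and innate immune receptors measured in pig kidney after neurologic death (ND). The genes were those with a single platform symbol made of CD, digits and at most 1 letter, or starting with TLR, FCGR, FCER, CLEC or SIGLEC. CD163, CD14, CD55, CD83, CD3E and FCGR3A were set aside, which left 51 of the 6765 genes measured. The ND group held 10 pigs in which a balloon catheter was inflated beneath the dura until ND was established. The control group held 10 pigs that received the burr hole, the catheters and the anaesthesia alone, all of which the ND pigs had as well. Animals were randomized, ventilated for 6 h and given 0.9% saline in boluses of 2 cc/kg when arterial pressure approached 35 mmHg, and kidney tissue was then frozen. The sources used here give no breed, sex or age. Each animal contributed 1 Affymetrix porcine array, and values are log2 signals per probe set, so a difference of 1 is a doubling. The tubule markers LRP2 and HNF4A read above background on all 20 arrays.

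CD antigens are cell surface proteins first catalogued with antibodies against leukocytes, and many are also carried by epithelium and endothelium. Toll-like receptors recognise microbial products and molecules released by injured cells, and they signal through adaptors such as MYD88. Fc receptors bind the constant part of antibodies and either activate cells through ITAM motifs or restrain them through ITIM motifs. C-type lectins and Siglecs recognise sugars or protein ligands on microbes and neighbouring cells. In the kidney these molecules are found on resident macrophages and dendritic cells, on entering leukocytes, and in part on tubule and vessel cells.

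In ND kidneys 7 of the 51 genes rose and none fell. The genes that rose were the self signal CD47, the leukocyte tetraspanin CD53, the lipopolysaccharide receptor TLR4, the inhibitory IgG receptor FCGR2B, the adhesion molecule CD99, the costimulatory receptor CD40 and the T cell coreceptor CD8A. Their rises lay between 0.41 for CD99 and 1.40 for FCGR2B on the log2 scale, or between 1.33-fold and 2.63-fold. Genes were tested with limma, and p-values were adjusted by Benjamini and Hochberg's method over all 23999 probe sets; a gene was called at an adjusted p under 0.05. Of the 51 genes 13.7% rose and 0% fell, and of all 6765 genes 5.44% rose and 4.55% fell, or 9.99% in either direction. At an unadjusted limma p under 0.05, 16 of the 51 lay higher and 5 lower in ND, and 3 of these 5 read at background on all arrays. Over all genes 14.3% lay higher and 15.7% lower at that p. The median difference of the 51 genes was 0.08, and that of all genes was -0.02. Both medians include genes at background on all 20 arrays, which were 14 of the 51 and 12.4% of all genes.

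The counts depended on how animal numbers were handled, on scaling and on single animals. With a term for animal number 1 of the 51 rose, and among animals numbered from Control_184 upwards 0 did. With every array shifted to a common median, 11 of the 51 rose and 12 fell, 10 of the 12 being genes at background on all arrays, while 5.97% of all genes rose and 24.3% fell. The number that rose was 4 without ND_22, ND_92, Control_155, Control_184, Control_190 or Control_197 and 11 without ND_198. Over all 6765 genes 368 rose with every animal kept, 266 to 328 in the cases with 4, and 405 without ND_198. For none of the 51 genes were the ND and control values fully separated, as they were for 0.591% of all genes.

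**Figure D1:**
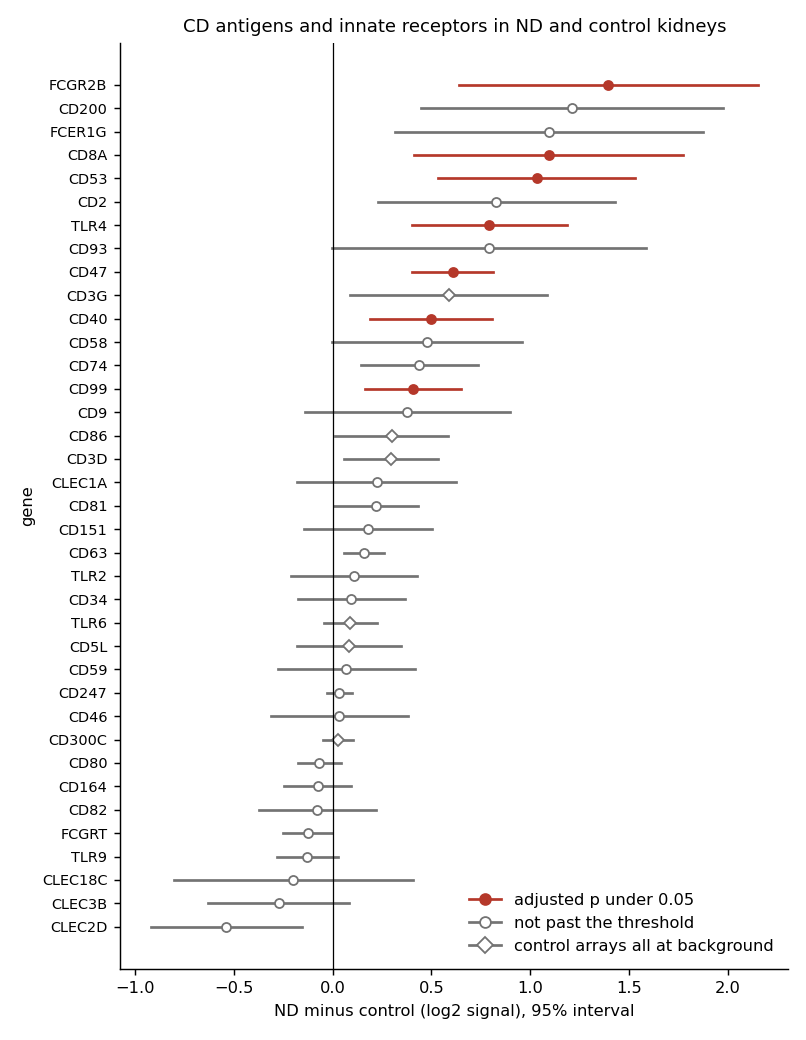
Difference between ND and control kidneys (log2 signal, ND minus control, x axis) with 95% intervals for the 37 genes that read above background on at least 1 array, 10 animals per group. Filled red circles mark the 7 genes with an adjusted p under 0.05, all right of 0, and diamonds mark genes whose control arrays all read at background, so that their difference understates any rise.

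Background was set at 2.79, the highest signal of the array's control probe sets for bacterial genes and tag sequences absent from pig. Of the 51 genes, 29 read above it on all 20 arrays, 8 on some arrays and 14 on none. The 14 without signal were TLR1, TLR8, FCGR1A, CLEC5A, SIGLEC1, CD209, CD1E, CD4, CD8B, CD27, CD69, CD38, CD79B and CD180. These include antigens of helper T cells (CD4), B cells (CD79B, CD180) and sinus macrophages (SIGLEC1), and no order is drawn from their values. Across all genes 12.4% lacked signal on every array. In whole tissue, fewer cells of a type and less RNA per cell cannot be told apart, for any gene below.

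CD47 had the smallest p-value of the 51 genes. It is carried by most cells and, by binding SIRPA on phagocytes, restrains their engulfment. Its level ranged from 10.22 through a median of 10.45 to 10.85 in ND kidneys and from 9.58 through 9.87 to 10.35 in control kidneys. All ND animals lay above the control mean and 6 of the 10 above every control, the highest control being Control_156. The difference was 0.61 ± 0.10 (SE, n = 10 per group), or 1.52-fold, with a limma adjusted p of 0.000983. Both other probe sets of CD47 lay higher in ND by 0.55, with adjusted p-values of 0.0396 and 0.0811. Its receptor gene SIRPA, which is not one of the 51, averaged 6.45 ± 0.44 in ND and 5.74 ± 0.37 in control kidneys (SD, n = 10 each), a rise of 0.71 ± 0.18 (SE; limma adjusted p = 0.0207).

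Of the 6 shields, adhesion molecules and self signals CD99 was the other that rose. CD99, which helps leukocytes pass between endothelial cells, read 7.96 to 9.16 (median 8.58) in ND and 7.78 to 8.43 (median 8.20) in control kidneys. It rose by 0.41 ± 0.12 (SE; limma adjusted p = 0.0400), with 6 ND animals above every control and ND_100 the lowest of its group. CD58, the ligand of CD2, averaged 5.53 ± 0.42 in ND and 5.05 ± 0.62 in control kidneys (SD, n = 10 each) and did not pass (limma adjusted p = 0.172). The complement regulators CD46, at 0.03 (95% interval -0.31 to 0.38), and CD59, at 0.07 (-0.28 to 0.42), did not pass, and both changed sign when arrays were shifted to a common median. The sialomucin CD164 was at -0.08 (-0.25 to 0.09). The other 2 probe sets of CD46 were at 0.41 (-0.19 to 1.01) and 0.25 (-0.27 to 0.76) and did not pass either.

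Among Toll-like receptors only TLR4, which senses lipopolysaccharide together with LY96 and CD14, passed the test. TLR4 read 7.59 to 9.18 (median 8.17) in ND kidneys and 7.22 to 7.98 (median 7.51) in control kidneys. With 8 of the 10 ND animals above every control, it had more such animals than any other of the 51 genes; ND_31 and ND_198 lay inside the control range. Its difference was 0.79 ± 0.19 (SE), or 1.73-fold, with a limma adjusted p of 0.0138. TLR4 had 4 further probe sets, of which 2 rose as well (0.94, adjusted p = 0.0213, and 0.92, adjusted p = 0.0438). The third, at 0.36, did not pass (limma adjusted p = 0.146), and the fourth read at background on all arrays.

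TLR2, which pairs with TLR1 or TLR6 to sense bacterial lipopeptides, averaged 6.90 ± 0.48 in ND and 6.79 ± 0.15 in control kidneys (SD, n = 10 each). Its difference of 0.11 (95% interval -0.21 to 0.43) did not pass (limma adjusted p = 0.627), although 4 ND animals lay above and 2 below the whole control range. TLR6 read above background in ND_92 alone, at 2.81. TLR9, an endosomal receptor of unmethylated DNA, read above background on 1 ND array and 4 control arrays. TLR1 and TLR8 gave no signal. The difference between TLR4 and TLR2 was not tested.

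**Figure D2:**
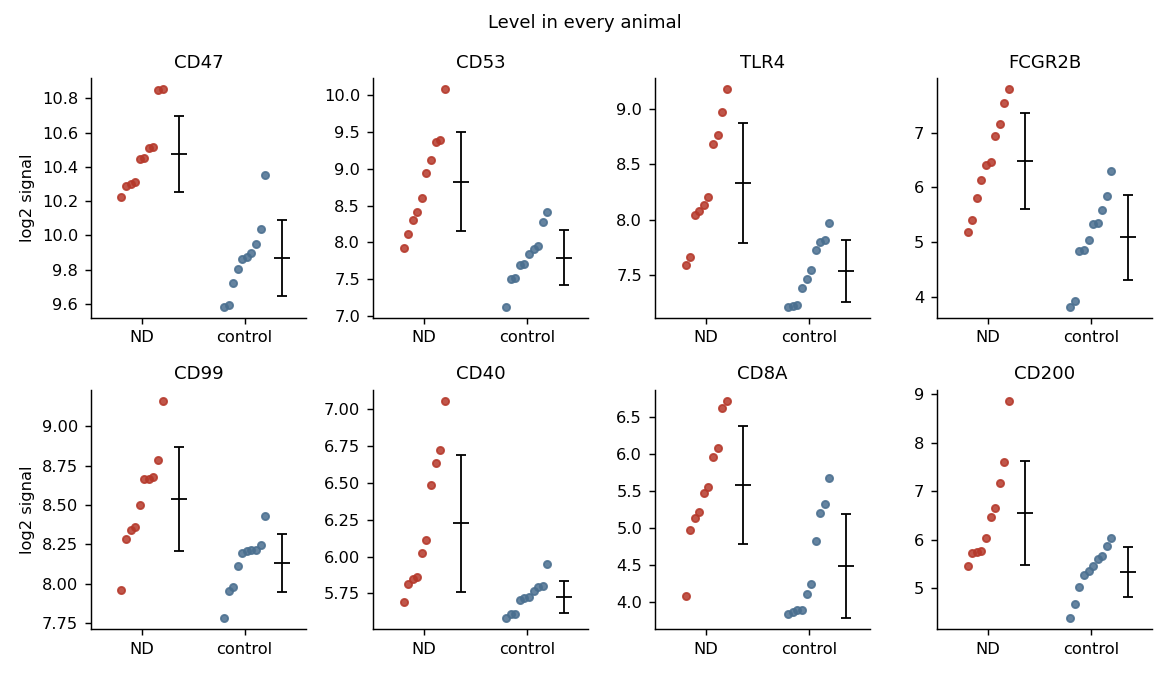
Log2 signal of each animal for the 7 genes that rose and for CD200, which missed the threshold, in ND (left, red) and control kidneys (right, blue), 10 animals per group. Points are animals in order of level, and bars give mean and SD. The groups overlap in every panel, and TLR4 has the most ND animals above all controls, at 8.

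Of 19 measured genes among 35 listed Toll-like receptor partners and signalling genes, 1 rose, 1 fell and 17 did not pass, with a median difference of -0.02. IRF7, a transcription factor of the interferon response, rose by 1.08 ± 0.22 (SE; limma adjusted p = 0.00634), and CD14, the lipopolysaccharide coreceptor, fell by 0.54 on the log2 scale (adjusted p = 0.0449). The direct TLR4 partner LY96 was at -0.05 (limma adjusted p = 0.885) and the adaptor MYD88 at -0.20 (adjusted p = 0.278). IKBKG, a regulator of NF-kB signalling, was at -0.45 (limma adjusted p = 0.0554).

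FCGR2B, the low affinity IgG receptor that carries an ITIM motif, had the largest rise of the 51 genes. It read 5.18 to 7.79 (median 6.43) in ND and 3.82 to 6.30 (median 5.18) in control kidneys. All ND animals lay above the control mean and 6 above every control, with ND_47 highest and ND_193 lowest. The rise was 1.40 ± 0.36 (SE), or 2.63-fold, with a limma adjusted p of 0.0231. Human FCGR2B is close in sequence to other low affinity IgG receptors, and whether the pig probes separate such genes was not tested. FCER1G, the gamma chain that couples several activating Fc receptors to ITAM signalling, read 3.94 to 7.49 (median 5.34) in ND and 3.65 to 5.04 (median 4.69) in control kidneys. ND_01, ND_22, ND_31, ND_47 and ND_92 exceeded every control and ND_198 was lowest of its group, and the difference of 1.09 ± 0.37 (SE) did not pass (limma adjusted p = 0.0811). FCGRT, the neonatal Fc receptor that recycles IgG and albumin in podocytes and tubule cells, was at -0.13 (95% interval -0.25 to -0.0019), with a limma adjusted p of 0.165. The high affinity IgG receptor FCGR1A gave no signal.

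Of 18 measured genes among 30 listed for ITAM and ITIM signalling, 5 rose, none fell and 13 did not pass, with a median difference of 0.30. The kinases LCK (1.13) and FYN (0.92) start ITAM signalling in T cells, and LCP2 (1.11) and VAV1 (0.54) relay it. TYROBP, the adaptor of many myeloid receptors, rose by 0.68 ± 0.18 (SE; limma adjusted p = 0.0250). Adjusted p-values of the other 4 lay between 0.0116 and 0.0485. Of 11 measured genes among 30 listed as other innate and scavenger receptors, SIRPA rose, the mannose receptor MRC1 fell (-0.87) and 9 did not pass, 4 of the 11 being at background on all arrays.

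None of the 5 C-type lectins passed. CLEC2D, a ligand of the NK cell receptor KLRB1, came nearest, at 9.58 to 11.00 (median 10.04) in ND and 10.15 to 11.36 (median 10.57) in control kidneys. In 5 ND animals it lay under every control, while ND_22 was the highest ND animal, and the difference was -0.54 ± 0.18 (SE; limma adjusted p = 0.0811). Without ND_22 the difference was -0.64 and passed (limma adjusted p = 0.0254). With any other single animal left out it did not pass (limma adjusted p up to 0.130). CLEC3B, or tetranectin, which binds plasminogen, was at -0.27 (adjusted p = 0.264), CLEC18C at -0.20 (adjusted p = 0.637) and the endothelial lectin CLEC1A at 0.22 (adjusted p = 0.411, limma for all 3). CLEC5A and the Siglec SIGLEC1 gave no signal.

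Of 9 T cell and NK cell antigens 1 rose, and the highest ND values came from a few animals. CD8A, a coreceptor chain of T cells, read 4.08 to 6.72 (median 5.51) in ND and 3.84 to 5.67 (median 4.18) in control kidneys. ND_01, ND_22, ND_31 and ND_47 lay above every control and ND_198 below the control mean, and the rise was 1.09 ± 0.33 (SE; limma adjusted p = 0.0485). CD2, an adhesion receptor of T and NK cells, averaged 4.20 ± 0.91 in ND and 3.38 ± 0.17 in control kidneys (SD, n = 10 each). The same 4 animals and ND_92 lay above all controls, the other 5 ND animals at 3.40 to 3.52, and the difference of 0.83 did not pass (limma adjusted p = 0.0852).

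The CD3 chains CD3D and CD3G, parts of the T cell receptor complex, were at background on all control arrays. CD3G read above background in ND_01, ND_22, ND_31 and ND_47, up to 4.52, and its ND mean was 1.22-fold the background level, ND arrays below it entering at their own signal (limma adjusted p = 0.123). CD3D did so in ND_22 and ND_31, with no fold given because the ND mean lay under background (adjusted p = 0.109). CD247, the zeta chain, averaged 3.63 ± 0.05 in ND and 3.59 ± 0.07 in control kidneys (SD, n = 10 each) and did not pass (limma adjusted p = 0.432). Another CD247 probe set read above background in ND_31 alone, at 4.61 (limma adjusted p = 0.260), and the rest on no array. CD8A and CD3G were highest in the same 4 ND animals. CD8B, the partner chain of CD8A in the heterodimer, gave no signal on any array.

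**Figure D3:**
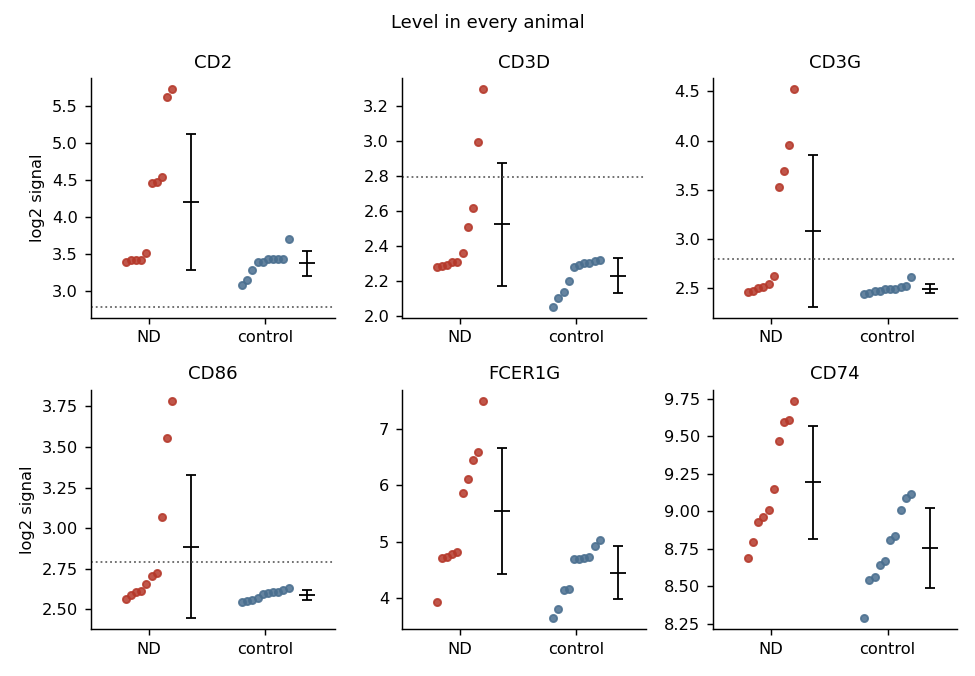
Log2 signal of each animal for T cell antigens (CD2, CD3D, CD3G), the costimulatory ligand CD86, the Fc receptor gamma chain FCER1G and the invariant chain CD74, in ND (left, red) and control kidneys (right, blue), 10 animals per group. Bars give mean and SD and the dotted line marks background at 2.79; CD3D, CD3G and CD86 exceed it only in 2, 4 and 3 ND animals.

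Among genes of antigen presentation and costimulation CD40 rose. CD40 is the receptor for CD40LG on B cells, dendritic cells, macrophages and activated endothelium. It read 5.69 to 7.06 (median 6.07) in ND and 5.58 to 5.95 (median 5.72) in control kidneys. The SD was 0.47 in ND and 0.11 in control kidneys: 6 ND animals lay above every control and the other 4 inside the control range. The rise was 0.50 ± 0.15 (SE; limma adjusted p = 0.0470), and the other CD40 probe sets did not pass, one being at 1.02 (adjusted p = 0.0613) and the other above background in 7 ND and 5 control animals (adjusted p = 0.143). CD74, the invariant chain of MHC class II, averaged 9.19 ± 0.38 in ND and 8.76 ± 0.26 in control kidneys (SD, n = 10 each) and did not pass (limma adjusted p = 0.0686).

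The CD28 ligand CD86 gave no signal in control kidneys and read above background in ND_31, ND_47 and ND_92, up to 3.78. Its ND mean was 1.07-fold the background level, computed in the same way (limma adjusted p = 0.155). CD80, the other CD28 ligand, lay just above background in both groups, at -0.07 (limma adjusted p = 0.351). None of the 4 genes listed as B cell antigens passed, CD74 among them, and the other 3 gave no signal.

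Of 6 tetraspanins, which organise other membrane proteins into patches, CD53 alone rose, and it is also the one restricted to leukocytes. CD53 read 7.93 to 10.08 (median 8.78) in ND and 7.13 to 8.42 (median 7.78) in control kidneys. All ND animals lay above the control mean and 6 above every control, with ND_47 highest. The rise was 1.03 ± 0.24 (SE), or 2.04-fold (limma adjusted p = 0.0122). Its other 2 probe sets were higher by 1.34 (limma adjusted p = 0.0793) and 0.19 (adjusted p = 0.513) without passing. CD63, a late endosome and lysosome protein, averaged 13.49 ± 0.13 in ND and 13.33 ± 0.08 in control kidneys (SD, n = 10 each), a difference of 0.16 that just missed the threshold (limma adjusted p = 0.0533).

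The remaining tetraspanins are widely expressed on epithelium. CD81 was at 0.22 (limma adjusted p = 0.163), CD151, which binds laminin receptors, at 0.18 (adjusted p = 0.412), CD9 at 0.38 (adjusted p = 0.285) and CD82 at -0.08 (adjusted p = 0.710). CD9 reached 12.93 in ND_47 against a control maximum of 11.36, and its ND values spread from 10.19, below every control, upward.

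**Figure D4:**
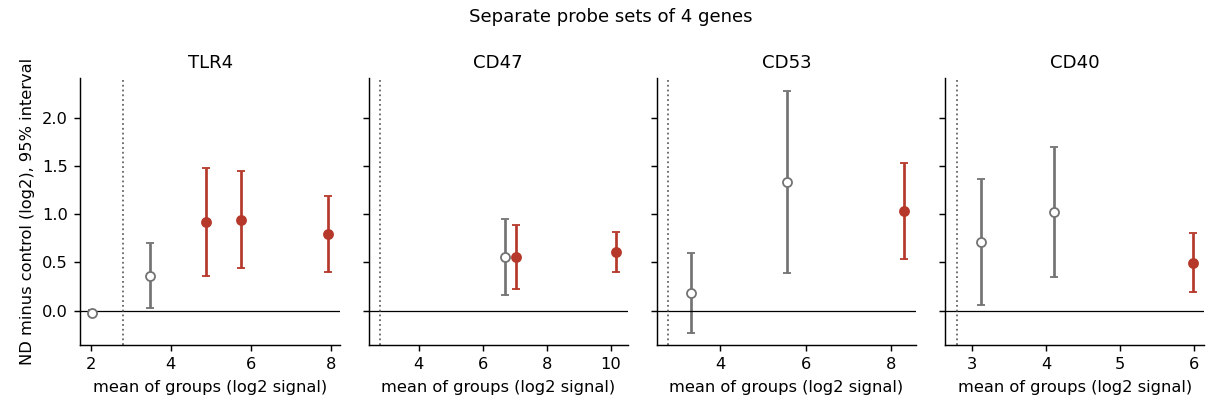
Difference between ND and control kidneys (log2, y axis, with 95% intervals) for each probe set of TLR4, CD47, CD53 and CD40 against its mean signal over both groups (log2, x axis), 10 animals per group. Filled red points passed the adjusted p threshold of 0.05, and the dotted line marks background at 2.79; all probe sets above background lie above 0, and the TLR4 probe set at background lies close to 0.

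Of the myeloid and endothelial antigens other than CD53 none passed. CD200, which restrains myeloid cells through its receptor and is found on endothelium and lymphocytes, was closest to the threshold on its far side, with a limma adjusted p of 0.0502. It read 5.46 to 8.87 (median 6.25) in ND and 4.38 to 6.04 (median 5.41) in control kidneys, with all ND animals above the control mean, 5 of them above every control and ND_47 highest. The difference was 1.21 ± 0.37 (SE). CD200 passed in 7 of the 20 cases with 1 animal left out (limma adjusted p 0.0321 to 0.0498). These were the cases without ND_31, ND_47, ND_86, ND_193, ND_194, ND_198 or Control_187. It also passed under 5 of 8 other settings, a common array median among them. With quantile normalization it did not pass (1.16, limma adjusted p = 0.0512). With the animal number term its difference was only 0.67 (limma adjusted p = 0.568). In the subset that starts at Control_184 it was 0.62 (limma adjusted p = 0.526). CD93, an endothelial and myeloid receptor, averaged 6.18 ± 1.09 in ND and 5.39 ± 0.57 in control kidneys (SD, n = 10 each) and did not pass (limma adjusted p = 0.171). ND_47 read 9.07 for CD93, the next ND animal 6.51. CD34, on vessel and progenitor cells, was at 0.10 (limma adjusted p = 0.613). CD300C and the macrophage product CD5L read above background in ND_47 alone, at 2.95 and 3.89.

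Animals contributed unequally to the rises. ND_22 and ND_47 lay above every control for all 7 genes that rose, ND_92 for 6, ND_01 for 5, ND_193 for 2 and ND_198 for 1. Of the 51 genes, ND_47 was the highest ND animal for 17, all of them above background in that animal. Without ND_47, CD47 (0.57), CD53 (0.89), TLR4 (0.72), FCGR2B (1.25) and CD99 (0.34) kept their calls, and CD40 (0.41, adjusted p = 0.0558) and CD8A (1.04, adjusted p = 0.0744, limma) lost theirs.

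CD47, CD53, TLR4 and FCGR2B kept their calls whichever 1 of the 20 animals was left out. CD99 lost its call without ND_01, ND_22, ND_86, ND_92, ND_194, Control_02, Control_155, Control_157, Control_184, Control_187, Control_190 or Control_197 (limma adjusted p 0.0505 to 0.0744). CD40 lost it without ND_01, ND_22, ND_31, ND_47, ND_92 or any control (adjusted p 0.0532 to 0.0879). CD8A lost it in 16 of the 20 cases, all but those without ND_198, Control_02, Control_156 or Control_157 (adjusted p 0.0502 to 0.0844).

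Animal numbers were unevenly placed, with 7 of 10 ND animals but 1 of 10 controls numbered up to 100, and the sources used here do not say what the numbers stand for. With a term for that split only CD47 remained called (0.54; limma adjusted p = 0.0286), while over all genes 0.872% rose and 1.91% fell. The other 6 kept their direction, with differences between 0.27 for CD40 and 0.76 for FCGR2B and adjusted p-values of 0.220 to 0.672. In the animals numbered from Control_184 upwards, 3 ND and 5 control, none of the 51 passed, and over all genes 0.148% rose and 0.177% fell. CD47 was nearest at 0.59 (limma adjusted p = 0.101), while FCGR2B was at 0.27 and CD40 at 0.09. The shares of the number split and of ND in these 6 rises cannot be told apart.

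**Figure D5:**
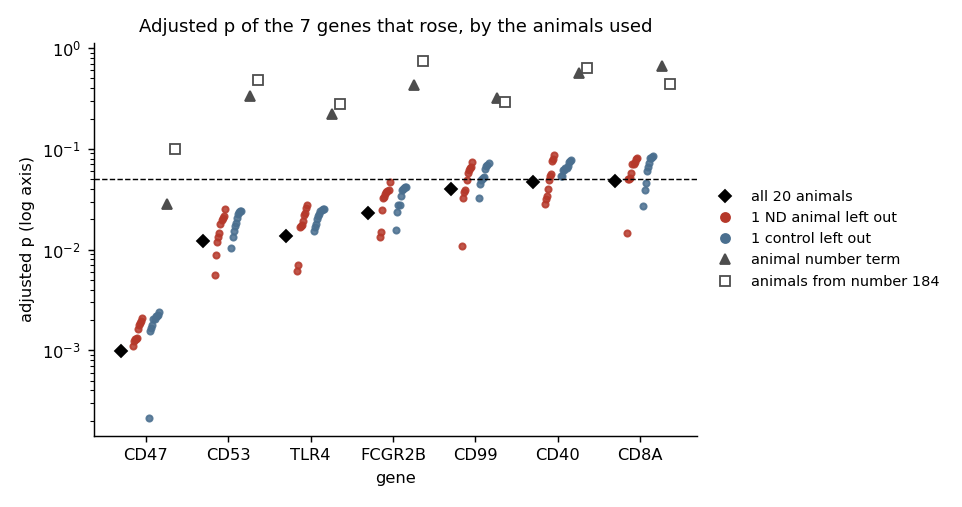
Adjusted p (log axis) of the 7 genes that rose, with all 20 animals (black diamonds), with 1 ND animal (red) or 1 control (blue) left out, with an animal number term (triangles) and among animals numbered from Control_184 upwards (open squares). The dashed line is the threshold of 0.05; CD47, CD53, TLR4 and FCGR2B stay under it in all 20 cases with 1 animal left out, and with the number term only CD47 does.

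Some markers of leukocytes, stroma and tubules outside the 51 genes moved as well. Of 5 measured general leukocyte markers LAPTM5, LCP1, CORO1A and ITGB2 rose (0.83 to 1.34) and PTPRC did not pass (0.10, limma adjusted p = 0.482). The mean log2 level of the 5 ranged from 5.97 to 7.48 in ND and from 5.22 to 6.18 in control kidneys, highest in ND_22. The 4 measured T and NK cell markers had a mean level of 3.91 to 5.34 in ND and 3.11 to 3.92 in control kidneys. LCK and GNLY rose, KLRK1 (1.15) did not pass (limma adjusted p = 0.0744), and PRF1 was at background throughout. The 6 measured macrophage markers ranged from 5.41 to 6.61 in ND and from 5.64 to 6.07 in control kidneys, with 1 fall (MRC1). AIF1 (0.41), C1QA (0.70) and C1QC (0.72) did not pass (limma adjusted p 0.0731 to 0.173), and ITGAM and MARCO were at background. Of 6 neutrophil markers none passed, and S100A8, S100A12, ELANE and MMP9 were at background on all arrays. Of 3 B and plasma cell markers BLNK (0.32), JCHAIN (1.13) and TNFRSF17 (-0.73) none passed (limma adjusted p 0.108 to 0.233). Of 3 dendritic cell markers IRF8 rose (1.34) and XCR1 and CCR7 were at background. Of 10 endothelial markers CLDN5 rose (2.02) and 9 did not pass, KDR being at background. Of 4 stromal and smooth muscle markers PDGFRB rose (0.65, limma adjusted p = 0.0361). Of 4 proximal tubule markers HNF4A (-0.84) and SLC2A2 (-1.82) fell, and the mean level of the 4 ranged from 8.79 to 10.94 in ND and from 10.37 to 11.30 in control kidneys. The part of leukocyte number in the rises of CD53, FCGR2B, CD8A, CD40 and TLR4 was not tested.

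The 6 genes set aside at the start moved in both directions, with CD163 (-2.04) and CD14 (-0.54) lower in ND and CD83 (1.96), CD55 (1.28), FCGR3A (0.98) and CD3E (0.91) higher, all past the limma threshold. CD3E was at background on all control arrays, and its ND mean was 1.25-fold the background level.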

How the data were processed

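Kidney RNA of 20 pigs was hybridised to 1-colour Affymetrix porcine arrays, 1 per animal, after biotin labelling of 250 ng total RNA, per the labels' protocols. The values deposited by the authors are log2 signals, a unit inferred from their range of 0.88 to 16.2, with 1 value for each probe set on each array. The sources used here do not state their background correction or normalization. Array medians lay between 5.09 and 5.35. With 10 arrays in each group, their number sets the precision.

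Of 24123 probe sets 124 controls were left out. Symbols came from the platform annotation (10069 probe sets with 1 symbol, 198 with several, 13732 with none here), and all 51 genes matched a RefSeq gene of the same symbol. The probe set of highest mean stood for each gene, and no filter was set on dim signals. ND and control were compared with limma 3.58.1 in R 4.3.3 (lmFit and eBayes, no covariate), which was tested on simulated data.

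The genes, role groups and marker lists were chosen with earlier results of these data known. All 51 genes could be named, with full values for those past the threshold and next in p. Of other genes the rule took 3 of each list by p, with PTPRC, LY96, MYD88 and TYROBP; VAV1 and the further markers were picked with their values in view. The alternatives concerned array scaling, dim probe sets, the eBayes prior, array weights, gene means, animal numbers, the p and fold thresholds, and each animal left out.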

Additional observations from a re-analysis of the deposited data

Results flagged for a closer look

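Levels of single animals were compared with the rest of their group in the 68 groups with any signal above background. By Dixon's criterion 8 had an extreme animal, where chance gives about 1 group in 20 if groups are independent and values normally spread. The groups share animals, and for CD5L, CD300C and TLR6 all other ND arrays read at background. The 8 can therefore not be set against that rate. In ND kidneys ND_47 was extreme for CD93 (9.07, next animal 6.51), CD151 (11.03, next 10.11), CD5L (3.89, next 2.67) and CD300C (2.95, next 2.66). ND_31 was extreme for CD247 (3.77, next 3.63), ND_22 for CLEC2D (11.00, next 10.32) and ND_92 for TLR6 (2.81, next 2.38). Among controls Control_134 was extreme and low for CD247 (3.39, next 3.57). None of these genes was called.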

How the results depend on the processing

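Of the 51 genes 7 rose and 0 fell. With a common array median the counts were 11 and 12, with quantile normalization 6 and 1, with an animal number term 1 and 0, among animals from Control_184 upwards 0 and 0, and at an adjusted p under 0.10 12 and 2. With 1 animal left out they were 4 to 11 and 0 to 1, and over all 6765 genes 266 to 433 and 244 to 369. Over all 6765 genes the counts were 368 higher and 308 lower, with a common median 404 and 1644, with quantile normalization 382 and 374, with the animal number term 59 and 129, and among animals from Control_184 upwards 10 and 12. At an adjusted p under 0.10 all genes were not counted, so the 12 and 2 have no share to be set against. The other alternatives left both counts of the 51 genes within 1.5 times. No gene that rose changed sign. Genes that had not passed changed sign under a common median (CD247 -0.056, CD300C -0.062, CD46 -0.056, CD59 -0.020, CD5L -0.0050), array weights (CD46 -0.076, CD59 -0.022, CD5L -0.0040), the animal number term (CD164 0.058, CD46 -0.26, CD59 -0.021, CLEC3B 0.016, TLR2 -0.10) and among animals from Control_184 upwards (CD151 -0.070, CD164 0.096, CD247 -0.0059, CD46 -0.29, CD59 -0.081, CD5L -0.043, CD82 0.091, CLEC18C 0.39, TLR2 -0.26, TLR6 -0.0013). With 1 animal left out, the differences ranged from -0.043 to 0.10 for CD46, from -0.023 to 0.12 for CD59, from -0.043 to 0.10 for CD5L and from -0.0058 to 0.035 for CD300C. The shift to a common median moved every difference by -0.089. The cause of the other sign changes was not tested. No paired analysis was possible because the groups share no animal number. Signals near background limit CD3D, CD3G, CD86, CD80, TLR6, TLR9, CLEC1A, CD300C and CD5L.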
